A study of Mus musculus with 16 samples.

Results

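The mesothelial marker genes of the mouse lung were followed as a set of 9 genes, Wt1, Bnc1, Msln, Upk3b, Upk1b, Lrrn4, Muc16, Gpm6a and Rspo1, taken up by name. A gene was taken up where the gene name of a probe on the array was that of a member, and this held for 8 of the 9. All 8 were well above background on each of the 16 arrays, so that none was lost to the filter on dim probes, and they were tested among 25674 genes. Muc16 had no probe under its own name. A single probe described in the array design as mucin 16, and named there only by the transcript ENSMUST00000034653, was found after the files were seen and is given apart from the 8, outside every count of members.

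The RNA came from whole lungs of female mice in 5 groups, and 1 single-colour array was read per sample. The 3 ARF-DTR groups were mice aged 12 months given diphtheria toxin (DT, 4 samples), mice aged 12 months given saline (PBS, 4 samples) and mice aged 2 months given no injection (4 samples). The 2 wild type groups were both aged 12 months, with 2 samples given DT and 2 given PBS. In ARF-DTR mice the promoter of Arf, a tumour suppressor that senescent cells express, drives a receptor that makes cells sensitive to the toxin. The study asked how lung expression differs with age and with DT in these mice, and wild type mice, which lack the transgene, served as controls for the toxin itself. DT was given into the peritoneal cavity at 50 microgram for each kg of body weight, every 2 weeks over 1 month, and PBS on the same scheme. All injected mice were 12 months old and the mice of 2 months were not injected, so that age and injection went together.

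The mesothelium is a single sheet of flat cells that covers the lung as the visceral pleura and lines the chest wall, the pericardium and the peritoneum. Its cells make a glycoprotein coat and lubricating fluid that let the lung slide, they descend from mesoderm, and they are able to turn into fibroblast-like cells. In a whole lung they are a small share of the cells, so these genes report on a thin layer within a large organ. In RNA from a whole lung, fewer cells of a type and less RNA per cell cannot be told apart.

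Values are log2 signals minus the 75th percentile of the same array, so that a step of 1 is a 2-fold difference and 0 is the level that 75% of the probes do not exceed. They are read for each gene across arrays, since probes differ in brightness and the level of one probe does not compare with that of another. The 75th percentile lay between 613 and 1088 intensity units, and 55.6% to 66.9% of the probes of an array were well above background. The PBS and 2-month ARF-DTR samples were on slide 1, and the other 3 groups were on slide 2. The age comparison therefore lay within slide 1, with age and row on the slide not separable. DT against PBS in ARF-DTR mice, and DT-treated against 2-month mice, crossed the slides, so that slide and treatment cannot be told apart there. Since no label says that each sample is from its own mouse, the p-values speak only of the spread between samples, and part of that spread may be technical.

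With age, 6 of the 8 genes rose and none fell (12-month PBS against 2-month ARF-DTR, 4 arrays each). Wt1, Bnc1, Rspo1, Upk3b, Msln and Gpm6a passed the test, Lrrn4 was higher without passing it, and Upk1b was not higher. The median change of the 8 was 1.06 on the log2 scale, against -0.03 for all genes tested. Of all genes, 2.73% passed with a higher level. In the same 6 genes every 12-month PBS array lay above every 2-month array, which held for 5.02% of all genes. The test was limma's, with p-values adjusted by Benjamini-Hochberg over all genes and a threshold of 0.05, and ± beside a log2 change is its standard error.

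The transcription factors came first. Wt1, a zinc finger factor that marks mesothelial cells and their progenitors, is read by a probe at chr2:105013656-105013715 on the plus strand of mm9. It stood at -0.18, 0.32, -0.44 and -0.18 on the 12-month PBS arrays, against -2.22, -2.45, -1.31 and -1.72 on the 2-month arrays. The groups did not overlap, and the nearest arrays were 12-month PBS replicate 3 and 2-month replicate 3. The change was 1.81 ± 0.36 (adjusted p = 0.0104). Bnc1 encodes basonuclin 1, a zinc finger factor of keratinocytes, germ cells and mesothelium, and its probe lies at chr7:89111978-89112037 on the minus strand. It stood at -2.35, -1.84, -2.54 and -2.43 on the 12-month PBS arrays, against -3.32, -4.29, -3.62 and -3.96 on the 2-month arrays. Every 2-month array was the dimmer one here too, and the change was 1.5 ± 0.24 (adjusted p = 0.00331).

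Among the surface proteins, Msln encodes mesothelin, a lipid-anchored glycoprotein that binds mucin 16 (probe at chr17:25885569-25885628, minus strand). It stood at 3.89, 3.90, 3.96 and 4.20 on the 12-month PBS arrays, against 3.18, 2.39, 3.32 and 2.88 on the 2-month arrays. The 12-month arrays were close together and the 2-month arrays spread over almost a full step, and the change was 1.04 ± 0.27 (adjusted p = 0.0386). This call was the least firm of the 6, since it passed in only 1 of the 8 fits that left out 1 array, with adjusted p-values of 0.033 to 0.111. The other 5 genes passed in all 8 of these fits.

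The probe described as mucin 16, the membrane mucin that is the partner of mesothelin, lies at chr9:18299899-18299958 on the minus strand. It read 2.10, 1.98, 1.78 and 2.19 on the 12-month PBS arrays, against 0.30, -0.16, 1.57 and 0.26 on the 2-month arrays. The 2-month replicate 3 stood well above the other 2-month arrays and still below all PBS arrays. The fitted change of this probe was 1.52 ± 0.34 (adjusted p = 0.0185).

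Upk3b and Upk1b are uroplakins, membrane proteins best known from the plaques of the bladder lining. Upk3b (probe at chr5:136520522-136520581, plus strand) stood at 0.74, 1.29, 0.81 and 0.86 on the 12-month PBS arrays, against 0.12, -0.58, 0.11 and -0.25 on the 2-month arrays, and it rose by 1.07 ± 0.21 (adjusted p = 0.0103). Upk1b, a member of the tetraspanin family read by 10 spots of 1 probe at chr16:38773859-38773918 on the minus strand, was the exception. It stood at 0.57, 0.72, 0.77 and 0.71 on the 12-month PBS arrays, against 0.65, 0.92, 0.96 and 0.55 on the 2-month arrays. The groups overlapped throughout, and the fitted change was -0.08 ± 0.15 (adjusted p = 0.83).

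Lrrn4, a leucine-rich repeat membrane protein, and Gpm6a, a tetraspan membrane glycoprotein first known from neurons, are the remaining surface proteins. Lrrn4 (probe at chr2:132694490-132694549, minus strand) stood at -0.19, 0.51, -0.56 and -1.25 on the 12-month PBS arrays, against -0.86, -1.90, -0.83 and -1.64 on the 2-month arrays. Replicate 4 of the PBS group fell inside the 2-month range, and the change of 0.94 ± 0.35 did not pass (adjusted p = 0.146). Gpm6a (probe at chr8:56145539-56145598, plus strand) stood at 1.68, 1.82, 1.91 and 1.99 on the 12-month PBS arrays, against 1.54, 1.06, 1.15 and 1.19 on the 2-month arrays. Its change of 0.62 ± 0.13 was the smallest of the 6 that passed (adjusted p = 0.014).

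Rspo1 encodes R-spondin 1, a secreted protein that strengthens Wnt signalling by binding Lgr receptors and taking the ubiquitin ligases Znrf3 and Rnf43 off the cell surface. Its probe lies at chr4:124686270-124686329 on the plus strand. It stood at 2.77, 3.00, 2.96 and 2.97 on the 12-month PBS arrays, against 1.85, 1.89, 1.89 and 1.52 on the 2-month arrays. Both groups were tight and lay apart, and the rise of 1.14 ± 0.13 had the lowest adjusted p of the 8 (0.000463).

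**Figure D1:**
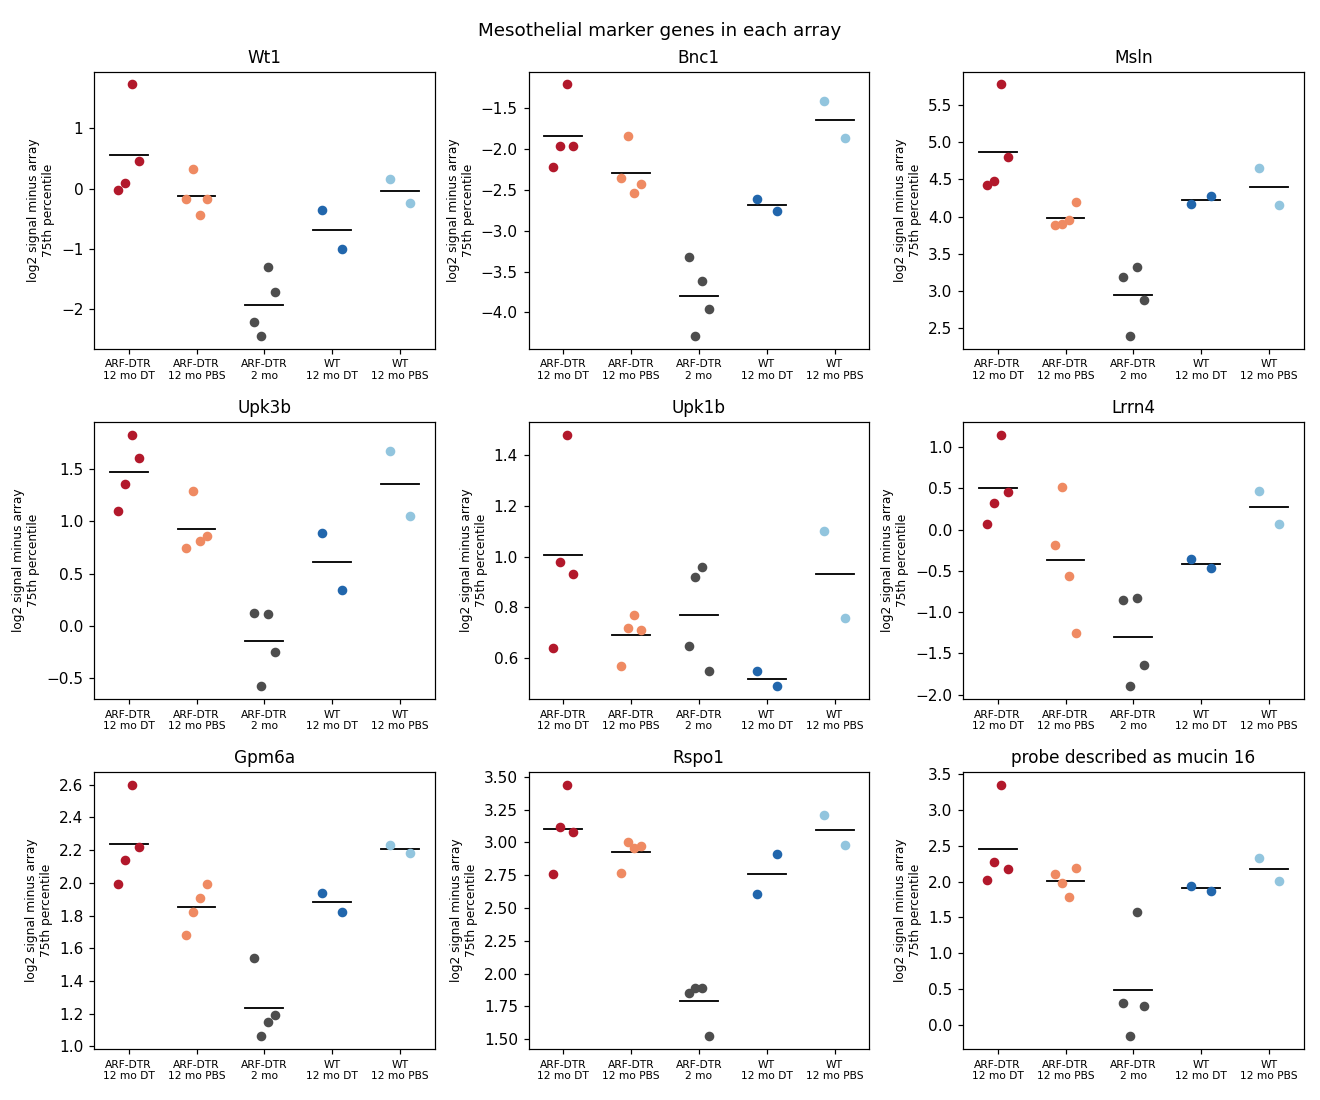
Log2 signal minus the array's 75th percentile (vertical axes) on each array for the 8 mesothelial marker genes and for the probe described as mucin 16, with 1 point per array, 5 groups from left to right and a line at each group mean. The 2-month arrays lie below all 12-month PBS arrays in every panel but those of Upk1b and Lrrn4, and replicate 3 is the highest ARF-DTR DT array in all panels.

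In DT-treated ARF-DTR lungs all 8 genes had a higher mean than in PBS-treated ARF-DTR lungs, but 2 passed the test, Msln and Gpm6a, and none was lower. A higher level with DT passed in 15.8% of all genes tested, so that 2 of 8 is not far from what genes in general did in this comparison. The median change of the 8 was 0.50, against 0 for all genes. The arrays of the groups did not overlap for 1 of the 8, Msln, against 15.7% of all genes. Both calls ended with quantile normalization, at 0.72 for Msln (adjusted p = 0.0547) and 0.33 for Gpm6a (adjusted p = 0.0673), and 1 of the 8 passed with the replicate block. With the array median in place of the 75th percentile 5 passed, and the median of all genes was then 0.18.

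Msln stood at 4.43, 4.48, 5.78 and 4.80 on the DT arrays, above all 4 PBS arrays given before, and the change was 0.89 ± 0.27 (adjusted p = 0.0268). Gpm6a stood at 1.99, 2.14, 2.60 and 2.22 on the DT arrays, the lowest of which was level with the highest PBS array, and the change was 0.39 ± 0.13 (adjusted p = 0.0388). Lrrn4 was at 0.07, 0.32, 1.15 and 0.46 with DT, and its change of 0.87 ± 0.35 did not pass (adjusted p = 0.0807). The other changes that did not pass were 0.68 for Wt1, 0.55 for Upk3b, 0.46 for Bnc1, 0.31 for Upk1b and 0.17 for Rspo1, with adjusted p-values of 0.0676 to 0.354. The probe described as mucin 16 read 2.02, 2.28, 3.35 and 2.18 with DT, and its change was 0.45 (adjusted p = 0.34).

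A single array stood above the rest of the DT group. Replicate 3 was the highest DT array and replicate 1 the lowest in 8 of 8 genes. With each gene set to its own mean over the 16 arrays, the genes averaged 0.24, 0.46, 1.24 and 0.59 on the 4 DT arrays, against 0.01, 0.35, 0 and 0 on the PBS arrays. Wt1 shows the gap plainly, with -0.02, 0.09, 1.73 and 0.46 on the DT arrays. Without replicate 3 the change was 0.58 for Msln (adjusted p = 0.0553) and 0.27 for Gpm6a (adjusted p = 0.11), and no member passed. None passed either without DT replicate 4, PBS replicate 1 or PBS replicate 3, whereas 4 passed without DT replicate 1.

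On the same DT replicate 3 other lists were high as well. Summed over a list on the unlogged scale, where the 75th percentile of an array is 1, the 8 members came to 84.2 there, against 38.3 to 48.9 on the other DT arrays. Bright probes weigh most in such sums, for the members that of Msln, at 5.78 on the log2 scale on that array. Adipocyte markers summed to 74.4 on that array and 19.9 to 48.3 on the others, and heart muscle markers to 125.1 on that array and 79.8 to 87.9 on the others. The heart markers were still lower there than on every ARF-DTR PBS array (146.4 to 278.1), and their median change with DT was -1.21, with 1 of 10 passing. Markers of lung fibroblasts summed to 364.2 there and 281.9 to 299.8 on the others. The part of fat, heart or connective tissue in the values of that array was not tested.

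**Figure D2:**
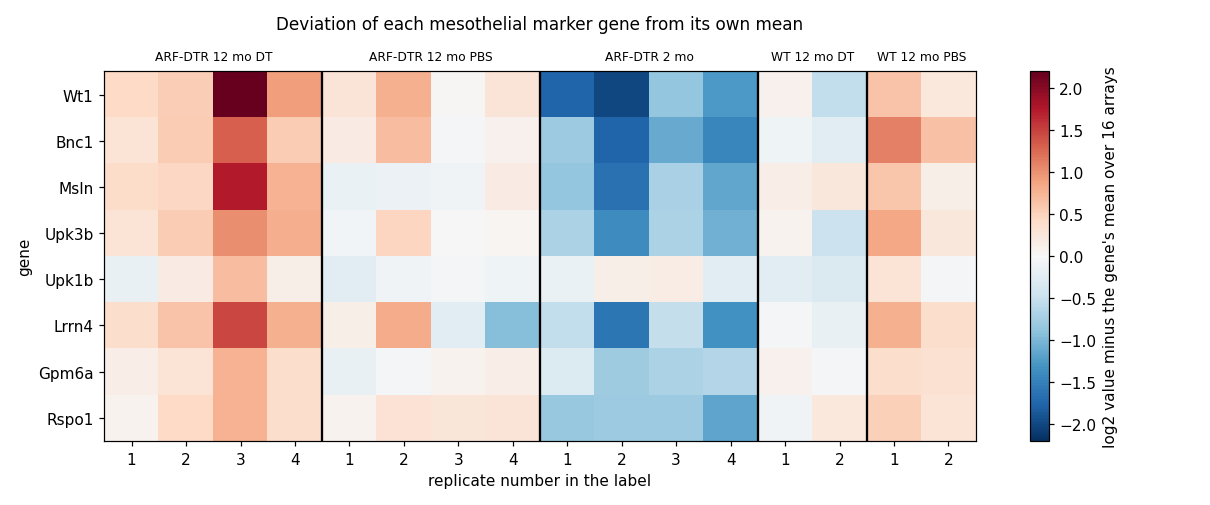
Log2 value of each mesothelial marker gene (rows) on each array (columns, by group and replicate number) minus the mean of that gene over the 16 arrays, with red above and blue below the mean. The 2-month columns are blue in all rows but that of Upk1b, and ARF-DTR DT replicate 3 is the darkest red column, with a mean of 1.24 over the 8 genes.

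In wild type lungs, DT went with lower means for all 8 genes, and none passed the test (2 arrays against 2). Of all genes tested, 0.175% passed in this comparison. The median change was -0.53, against -0.02 for all genes. Both DT arrays lay below both PBS arrays for 7 of the 8, where 24.8% of all genes did the same. An unadjusted p under 0.05 was found for 2 of the 8 and for 3267 of all 25674 genes. Bnc1 stood at -2.61 and -2.76 with DT, against -1.41 and -1.87 with PBS, a change of -1.04 ± 0.34 (adjusted p = 0.222). Upk3b stood at 0.89 and 0.34 with DT, against 1.67 and 1.05 with PBS, a change of -0.75 ± 0.30 (adjusted p = 0.319). Wt1 stood at -0.36 and -1.01 with DT, against 0.16 and -0.24 with PBS, a change of -0.65 (adjusted p = 0.655). In Msln the groups overlapped, with 4.17 and 4.28 under DT and 4.65 and 4.15 under PBS. Of the PBS arrays, replicate 1 was the higher in 8 of 8 genes. The free-text description of that sample mentions DT, while those of the wild type DT samples do not. Without it the change of Msln turned to 0.07, and no other member turned direction.

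The difference between both DT responses, ARF-DTR minus wild type, was positive in all 8 genes and passed in none of them. Of all genes, 2.11% passed this test. The median difference was 1.18, against 0.04 for all genes. An unadjusted p under 0.05 was found for 7 of the 8 and for 5455 of all 25674 genes. The lowest adjusted p-values were those of Bnc1, with a difference of 1.5 ± 0.42 (adjusted p = 0.0793), and Upk3b, with 1.30 ± 0.37 (adjusted p = 0.0813). Both of these genes passed after another background correction, normexp, at 1.15 for Bnc1 (adjusted p = 0.0295) and 1.23 for Upk3b (adjusted p = 0.042). Both differences were smaller with normexp, and 2007 of all genes then passed this test, against 541 before. The difference for Wt1 was 1.33 (adjusted p = 0.239). The ARF-DTR side of this test crosses the slides.

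The DT groups of both genotypes shared slide 2, where genotype and row cannot be told apart. ARF-DTR means were higher than wild type means in all 8 genes after DT, and none passed (adjusted p = 0.132 to 0.375), where 0.923% of all genes passed. All ARF-DTR arrays lay above both wild type arrays for 7 of the 8, against 14.2% of all genes. The unadjusted p was under 0.05 in 5 of the 8 and in 4015 of all 25674 genes. The median difference was 0.75, against 0.01 for all genes, and it ran from 0.34 in Rspo1 to 1.25 ± 0.44 in Wt1 (adjusted p = 0.188).

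Against wild type mice given PBS, also on slide 2, DT-treated ARF-DTR mice differed by -0.19 to 0.60 with a median of 0.10. No member passed (adjusted p = 0.437 to 0.996), where 5.55% of all genes passed. None had an unadjusted p under 0.05, which 5717 of all 25674 genes had. PBS-treated ARF-DTR mice had lower means than PBS-treated wild type mice in all 8 genes, by -0.65 to -0.08, and this comparison crosses the slides. None passed (adjusted p = 0.124 to 0.914), where 23.6% of all genes passed. An unadjusted p under 0.05 was found for 2 members and for 9491 of all 25674 genes. After normexp 1 member passed.

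DT-treated ARF-DTR mice of 12 months had higher levels than 2-month ARF-DTR mice in 7 of the 8 genes, and none was lower. Higher levels passed in 14.8% of all genes. In the same 7 the arrays did not overlap, against 14.6% of all genes. The median change was 1.72, against -0.03 for all genes. Wt1 differed by 2.49 ± 0.36 (adjusted p = 0.000316), Bnc1 by 1.96 ± 0.24 (adjusted p = 0.000115) and Msln by 1.93 ± 0.27 (adjusted p = 0.000267). Lrrn4, which had not passed between 12-month PBS and 2-month mice, differed by 1.81 ± 0.35 (adjusted p = 0.00213). Upk3b, Rspo1 and Gpm6a differed by 1.63, 1.31 and 1.0, with adjusted p-values of 2.96e-05 to 0.000165. Upk1b differed by 0.24 ± 0.15 and did not pass (adjusted p = 0.264). All 7 passed in each of the 8 fits that left out 1 array. The 2-month arrays enter both this comparison and that with age, so that neither adds to the other.

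The order of the 5 group means was much the same from gene to gene. DT-treated ARF-DTR lungs had the highest mean in 7 of the 8 genes and the second highest in the other, Bnc1. Wild type PBS lungs were second in 7 and first in Bnc1. In Gpm6a these means were 2.24 ± 0.26 in ARF-DTR DT (SD, n = 4) and 2.2 ± 0.04 in wild type PBS (SD, n = 2), closer together than the spread of the DT arrays. PBS-treated ARF-DTR lungs and DT-treated wild type lungs took the middle places, and 2-month ARF-DTR lungs were last in 7. In Upk1b the 2-month mean of 0.77 ± 0.20 (SD, n = 4) ranked 3 of 5, and the lowest mean was that of DT-treated wild type lungs, 0.52 ± 0.04 (SD, n = 2). Wt1 averaged 0.56 ± 0.80 in ARF-DTR DT and -0.12 ± 0.32 in ARF-DTR PBS (SD, n = 4 each), and -0.68 ± 0.45 in wild type DT and -0.04 ± 0.28 in wild type PBS (SD, n = 2 each). The means of Wt1 in ARF-DTR DT, wild type PBS and ARF-DTR PBS were each closer to the next than the larger of their spreads. The mean in wild type DT lay further from each of them than the larger spread of the pair. In the fit it did not differ from wild type PBS (adjusted p = 0.655) or ARF-DTR DT (adjusted p = 0.188) past the threshold. The 2-month mean was the lowest at -1.93 ± 0.51 (SD, n = 4).

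**Figure D3:**
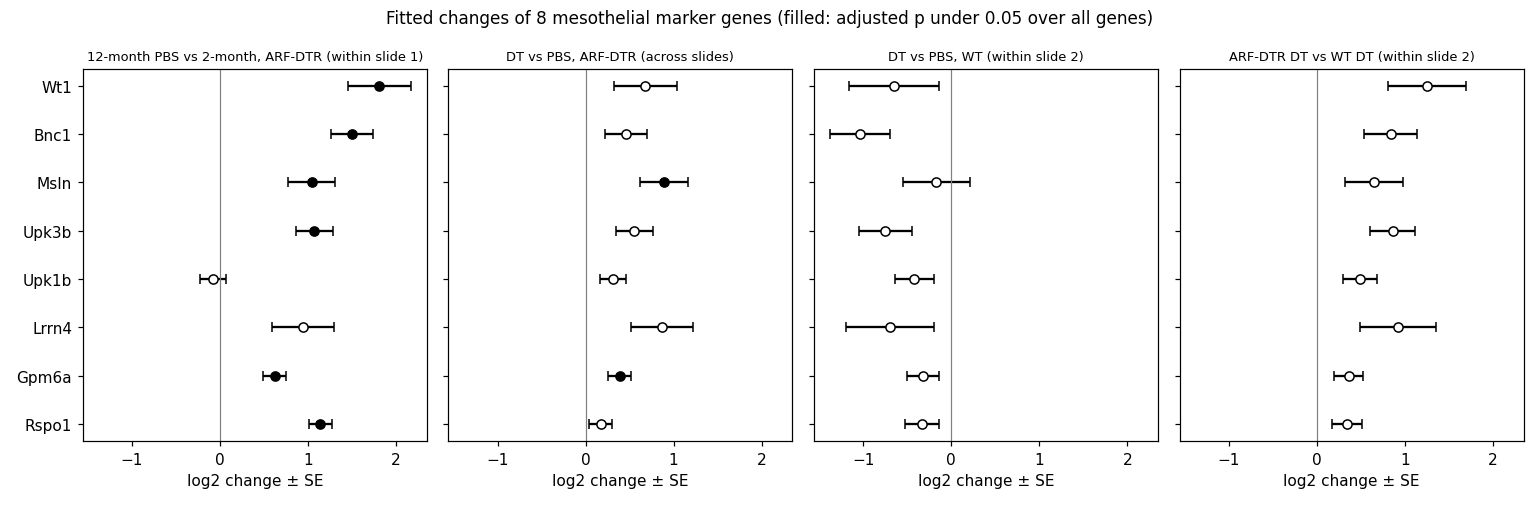
Fitted log2 change with its standard error (horizontal axes) of the 8 mesothelial marker genes (rows) in 4 comparisons, filled where the adjusted p was under 0.05. Filled points are 6 for age and 2 for DT against PBS in ARF-DTR mice, and none for DT in wild type or for ARF-DTR DT against wild type DT, where the points lie from -1.04 to -0.17 and from 0.34 to 1.25.

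The genes varied together across the arrays, apart from Upk1b. The Pearson correlation of each gene with the mean of the others over the 16 arrays was 0.97 for Bnc1 and Upk3b, 0.95 for Wt1, 0.94 for Msln and Gpm6a, 0.91 for Lrrn4 and Rspo1, and 0.48 for Upk1b. These points share the group differences and the scaling of each array, and they are given as a description. Of 17367 other genes with a proper symbol, 17 had a correlation above 0.9 with the mean of the 8 and 133 one above 0.8.

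The gene most like them was Aldh1a2, the enzyme that makes retinoic acid in mesothelium and in the embryo (r = 0.985, rho = 0.959, 16 arrays). Next came Cldn15, a claudin of tight junctions (r = 0.983), Sfrp2, a secreted modulator of Wnt signalling (r = 0.98), and Crb2, a polarity protein of the Crumbs family (r = 0.976). The complement gene C2 (r = 0.972), Tmem151a (r = 0.964), Pcnx2 (r = 0.959) and Rpp25, which encodes a subunit of ribonuclease P (r = 0.953), completed the nearest 8. Aldh1a2 stood at 1.73, 1.88, 1.75 and 1.89 on the 12-month PBS arrays, against 0.59, 0.06, 0.64 and 0.17 on the 2-month arrays, and it rose with age by 1.45 ± 0.21 (adjusted p = 0.00152). In wild type lungs Aldh1a2 read 1.59 and 1.14 with DT, against 2.38 and 1.81 with PBS. Cldn15 rose with age by 1.37 ± 0.22 (adjusted p = 0.003) and Sfrp2 by 1.37 ± 0.24 (adjusted p = 0.00594). Of the 8 nearest genes 6 rose with age, and Crb2 (1.03, adjusted p = 0.0806) and Rpp25 (0.87, adjusted p = 0.165) did not pass. These genes were chosen for following the members over the same arrays, with the low 2-month arrays among them, so that their changes with age were largely set by the choice and add nothing to those of the members.

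Promoters are shown because these genes moved together, so that a reader can see what sequence lies before their starts. RefSeq windows of the mouse build GRCm38.p6 were at hand for 6 of the 9 genes, with 2 starts for Gpm6a. The window of Muc16 held only 32 bases, well short of the start site, and is not printed, nor is that of the other Gpm6a start. Those printed run 5′ to 3′ on the strand of the gene and end just before the start site (that of Rspo1 stops short of it), with matches to the motifs named after them in capitals. The windows are Bnc1, chr7:81992300-81992549 (minus strand), Upk3b, chr5:136038246-136038495 (plus), Lrrn4, chr2:132880863-132881112 (minus), the upstream start of Gpm6a, chr8:54779184-54779433 (plus), and Rspo1, chr4:124986180-124986400 (plus).
Bnc1: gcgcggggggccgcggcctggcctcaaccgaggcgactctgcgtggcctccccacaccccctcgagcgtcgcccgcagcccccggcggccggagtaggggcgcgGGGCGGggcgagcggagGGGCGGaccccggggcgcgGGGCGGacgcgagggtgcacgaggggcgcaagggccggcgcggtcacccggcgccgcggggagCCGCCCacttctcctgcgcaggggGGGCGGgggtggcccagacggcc
Upk3b: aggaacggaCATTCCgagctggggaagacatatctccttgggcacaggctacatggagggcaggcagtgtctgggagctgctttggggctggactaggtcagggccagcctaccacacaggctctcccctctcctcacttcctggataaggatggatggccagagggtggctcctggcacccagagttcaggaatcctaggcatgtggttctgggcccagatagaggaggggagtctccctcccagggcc
Lrrn4: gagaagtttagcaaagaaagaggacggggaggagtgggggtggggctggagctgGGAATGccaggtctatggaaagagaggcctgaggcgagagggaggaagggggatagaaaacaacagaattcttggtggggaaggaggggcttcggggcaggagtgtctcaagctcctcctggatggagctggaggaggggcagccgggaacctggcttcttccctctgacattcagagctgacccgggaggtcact
Gpm6a: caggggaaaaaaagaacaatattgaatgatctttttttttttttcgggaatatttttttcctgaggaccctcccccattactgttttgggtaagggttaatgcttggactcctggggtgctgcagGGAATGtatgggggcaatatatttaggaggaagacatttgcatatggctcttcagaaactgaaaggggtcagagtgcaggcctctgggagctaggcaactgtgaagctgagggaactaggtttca
Rspo1: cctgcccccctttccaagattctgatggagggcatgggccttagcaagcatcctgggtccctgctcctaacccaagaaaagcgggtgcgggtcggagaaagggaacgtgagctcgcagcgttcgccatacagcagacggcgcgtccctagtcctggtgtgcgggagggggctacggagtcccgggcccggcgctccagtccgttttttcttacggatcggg

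Letters were searched on both strands. GGAATG, which TEAD factors bind, was present in the windows of Upk3b (as its reverse complement), Lrrn4 and Gpm6a and in 12.6% of all 32851 windows. GGGCGG, bound by SP and KLF factors, occurred 5 times before Bnc1, once of these as the reverse complement, and in 32.7% of all windows. No window of a member held GCGNGGGCG, letters of the EGR and WT1 zinc finger site, which 4.7% of all windows hold and which can overlap GGGCG of the SP and KLF letters. None held the E-box CACGTG, found in 6.02% of windows. TATAAA, found in 12.4% of windows, occurred among the members only before the other start of Gpm6a. G and C made up 83.6% of the Bnc1 window, 60.8% of Upk3b, 59.2% of Lrrn4, 63.3% of Rspo1, 44.4% of the upstream Gpm6a window, 33.6% of the other Gpm6a window and 31.2% of the short Muc16 window, with a median of 52.4% over all windows. A match describes these letters only, and neither a match nor its absence shows what binds there.

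Other genes known from mesothelium had a lower median change with age than the 8. Of 25 such genes on a separate list 23 were measured, and 4 rose and 1 fell with age. Among all genes, 2.73% passed with a higher and 3.42% with a lower level with age. The median of the 23 was 0.09. Beside Aldh1a2 and Cldn15, Igfbp5, which encodes a binding protein of insulin-like growth factors, rose by 0.68 ± 0.14 (adjusted p = 0.0147). Tbx18 is a T-box factor of the epicardium and of developing mesothelium. It was well above background on 4 of 4 ARF-DTR PBS arrays and on 0 of 4 2-month arrays, at least 2.31-fold higher (adjusted p = 0.0493). On the wild type PBS arrays, also of 12 months, Tbx18 was well above background on 0 of 2. ARF-DTR DT lungs were at least 1.25-fold higher than these, both on slide 2 (adjusted p = 0.0332). Wild type DT arrays read -6.47 and -6.25, against -6.44 to -5.95 at 2 months. Cdh2, the cell adhesion protein N-cadherin, fell by 0.60 ± 0.09 (adjusted p = 0.00149). The simple epithelial keratins Krt7, Krt8, Krt18 and Krt19, which mesothelium shares with lung epithelium, changed by -0.18 to 0.01 with age and did not pass. Calb2 and Pkhd1l1 were not well above background on enough arrays to be tested.

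With DT in ARF-DTR mice 6 of the 23 rose and 1 fell, with a median of 0.19. Of all genes, 15.8% passed with a higher and 13.4% with a lower level. Krt19 rose by 0.71, Krt7 by 0.71 and Krt18 by 0.57, and Tm4sf5, a tetraspan membrane protein, fell by 0.57. This comparison crosses the slides. Krt18 read 6.47 and 6.35 on the wild type PBS arrays, also on slide 2, against 5.87 to 6.44 on the ARF-DTR DT arrays. Krt7 read 4.09 and 3.89 on the wild type PBS arrays, against 4.26 to 4.41. Of the 23, 2 passed as higher and 6 as lower in ARF-DTR PBS than in wild type PBS mice. Of all 25674 genes, 2799 passed as higher and 3260 as lower there. Between DT-treated and 2-month mice 12 rose and 1 fell, with a median of 0.37. Aldh1a2 was higher by 2.01, Cldn15 by 1.89 and Fgf9, a growth factor made by the pleura of the embryo, by 1.47. Of all genes, 14.8% passed with a higher and 15.9% with a lower level in that comparison.

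Genes listed as relatives of the members were 15, of which 13 were measured. None rose with age and 1 fell, Lrrn3, by 0.47 ± 0.09 (adjusted p = 0.0121), with a median of -0.24. A lower level with age passed in 3.42% of all genes. With DT in ARF-DTR mice Muc1 rose by 0.61 and Rspo3, Upk3a and Lrrn3 fell, where 15.8% of all genes passed with a higher and 13.4% with a lower level. Rspo3, the R-spondin of endothelium and stroma, stood at -1.97, -2.00, -2.18 and -2.27 with DT, against -1.16, -1.16, -0.99 and -1.17 with PBS. It fell by 0.99 ± 0.07 (adjusted p = 4.53e-06), while Rspo1 changed by 0.17 and did not pass. In wild type mice Rspo3 read -1.58 and -1.62 with DT, against -1.49 and -1.40 with PBS, and the ARF-DTR response minus the wild type response was -0.83 (adjusted p = 0.00772). Between DT-treated and 2-month ARF-DTR mice 8 of the 13 fell and none rose, where 15.9% of all genes passed with a lower level.

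Genes of R-spondin and Wnt reception were 17, all measured. None rose with age and 2 fell, Lef1, a nuclear partner of beta-catenin, by 0.86 ± 0.16 (adjusted p = 0.00759) and the receptor gene Fzd2 by 0.44 ± 0.10 (adjusted p = 0.0204). The median was -0.23, and 3.42% of all genes passed with a lower level with age. With DT in ARF-DTR mice 2 rose and 5 fell, among them the Wnt target Axin2 by 0.79 ± 0.11 (adjusted p = 0.000465), Notum, a secreted inhibitor of Wnt proteins, by 0.75 and the R-spondin receptor gene Lgr5 by 0.65. Sp5, another Wnt target, rose by 0.69. Of all genes, 15.8% passed with a higher and 13.4% with a lower level in this comparison, which crosses the slides. For Axin2 the wild type PBS arrays, also on slide 2, read -1.32 and -1.39, against -1.48 to -1.13 on the ARF-DTR DT arrays. Of the 17, 6 passed as higher in ARF-DTR PBS than in wild type PBS mice, Axin2, Notum and Lgr5 among them. None passed as lower, where 2799 of all 25674 genes passed as higher. That comparison crosses the slides too. Between DT-treated and 2-month mice 12 of 17 fell and none rose, where 15.9% of all genes passed with a lower level.

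Genes of the transition of mesothelium to fibroblast-like cells were 13, all measured. None passed with age (median -0.14). With DT in ARF-DTR mice Tgfb1 rose by 0.46, and the smooth muscle genes Acta2 and Tagln fell by 0.71 and 0.58. The repressor gene Zeb2 fell by 0.35, and in all 2 rose and 4 fell. Of all genes, 15.8% passed with a higher and 13.4% with a lower level in this comparison. The comparison crosses the slides. In wild type mice, on slide 2, Acta2 read 4.76 and 4.83 with DT, against 5.26 and 5.31 with PBS. Tagln read 5.37 and 5.33 with DT, against 5.71 and 5.70 with PBS, and none of the 13 passed there. Tgfb1 read 0.09 and 0.05 on the wild type PBS arrays, against 0.02 to 0.30 on the ARF-DTR DT arrays. Smooth muscle of airways and vessels expresses Acta2 and Tagln as well.

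Tissues that a dissected lung can carry with it were read from their own markers. With age, none of 9 adipocyte markers, 10 heart muscle markers or 3 thymus markers passed, and the heart markers had a median change of 0.87. Summed heart markers came to 146.4 to 278.1 on the 12-month PBS arrays, against 30.6 to 319.7 on the 2-month arrays, and adipocyte markers to 23.0 to 62.7, against 13.4 to 146.2. Both sums overlapped between the ages. The sums of the members, 30.0 to 35.2 with PBS and 14.1 to 20.0 at 2 months, restate the change with age given above. Of 6 skeletal muscle markers measured 1 rose, Actn3, by 0.98, where 2.73% of all genes passed with a higher level. Lep and Ucp1 of the 11 adipocyte markers listed were too dim to be tested. The 9 that were tested, Adipoq and Plin1 among them, were well above background on all 16 arrays. Of 8 thymus markers listed only 3 could be tested, and Rag1 and Foxn1 were among those too dim.

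Of 10 markers of serosal macrophages and B1 cells, which live on mesothelial surfaces, 1 rose with age. This was Cxcl13, a chemokine that draws B cells, with 2.24, 0.27, 1.51 and 1.14 on the 12-month PBS arrays, against -0.90, -1.04, -1.35 and -0.80 on the 2-month arrays (change 2.31 ± 0.38, adjusted p = 0.00354). Of 12 lung fibroblast markers 3 fell with age, the collagen genes Col3a1, Col1a1 and Col1a2, by 1.13, 1.09 and 0.90. None of 12 alveolar epithelium markers passed with age, and 9 rose with DT in ARF-DTR mice, the surfactant gene Sftpd by 0.87. A higher level passed in 15.8% of all genes in the comparison with DT, which crosses the slides. Sftpd read 8.15 and 7.85 on the wild type PBS arrays, against 8.14 to 8.48 on the ARF-DTR DT arrays. Of 9 pulmonary endothelium markers 3 fell with age, Kdr, Pecam1 and Cdh5, by 0.43, 0.27 and 0.25 (median -0.24). Of 6 markers of oesophagus and skin epithelium 1 fell with age, Sprr1a, by 0.82. Beside these counts with age, 2.73% of all genes passed with a higher and 3.42% with a lower level. The part of these tissues in the values of the 8 genes was not tested.

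**Figure D4:**
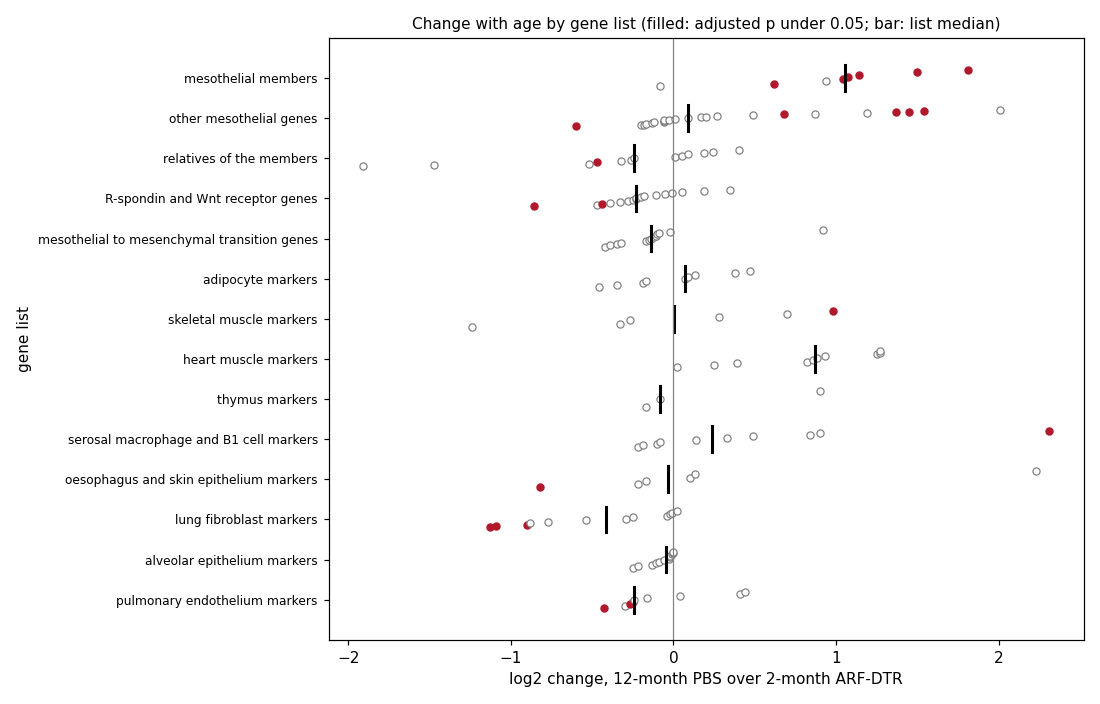
Log2 change with age, 12-month PBS over 2-month ARF-DTR (horizontal axis), of each measured gene (points) in 14 gene lists (rows), filled where the adjusted p was under 0.05, with a bar at the median of each list. The mesothelial marker genes have the highest median (1.06), the heart muscle markers have 0.87 with no filled point, and the other lists lie between -0.42 and 0.24.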

How the data were processed

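Total RNA of whole lungs was labelled with Cy3 and read on single-colour arrays, per the labels' protocols, with Agilent Feature Extraction 10.10.1.1, per the submitters' processing notes. The deposited spot intensity values (background-subtracted and detrended, per the file headers) are not scaled between arrays. The deposited spot flags served for filters, and the mean and local background intensity for an alternative. Log2 values in the authors' deposited series values matched the log2 signal minus each array's 75th percentile (median absolute difference 0.00669 over 55681 probes). Any further step by the authors is not given in the sources used here.

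Control spots and outlier spots (105 to 171 per array) were left out, and spots of a probe were averaged. Probes well above background on at least 4 of 16 arrays were kept (37036), and the brightest stood for its gene. Probe positions are those of the files (mm9). The exon or untranslated region under a probe was not analysed here. Genes were named by accession, symbol or file name (27656, 3401 and 24624 probes).

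All 16 arrays entered 1 fit with limma 3.58.1 in R 4.3.3 (statmod 1.5.0, jsonlite 2.0.0 and version 1.17.8 of data.table), with 1 mean per group and two-sided tests. The fit was tested on simulated data. The number of arrays limits the precision. Other backgrounds, scalings, filters, probe rules, sample sets, a replicate block and left-out arrays were tried. The genes to name were all members, up to 4 genes of a list with the largest change among those that passed, and the 8 genes most like the members. Genes named beyond these rules (Cdh2, the keratins and other uncalled genes, Rspo3 in wild type) were chosen after their values were seen. The members, lists and tests were chosen with earlier results of these data known.

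Groups came from titles, source names and treatments. The free-text description of wild type PBS replicate 1 mentions DT, while neither DT sample of wild type mice has the word in its description.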

Additional observations from a re-analysis of the deposited data

Results flagged for a closer look

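Rspo1 at 2 months had 1 array far from the others. ARF-DTR 2-month replicate 4 read 1.52, below the other 3 arrays of that group, which lay at 1.85 to 1.89. Its gap to the nearest array was 0.890 of the range of the group, above Dixon's critical value for 4 samples. Of 27 groups of 4 arrays examined, over the 8 genes and the probe described as mucin 16, 1 was marked in this way, and chance marks about 1 in 20. The rise of Rspo1 with age passed in all 8 fits that left out 1 array, at 1.05 to 1.19.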

How the results depend on the processing

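The number of mesothelial genes that passed with age was 6, 5 to 6 with any 1 array left out and 5 with no filter on dim probes (Msln, adjusted p = 0.0592). Between DT-treated and 2-month ARF-DTR mice it was 7 throughout. For DT against PBS in ARF-DTR mice it was 2, but 1 with the replicate block, 0 with quantile normalization, 5 with array median scaling, 1 with no filter, 1 with only the arrays of the contrast and 0 to 4 with 1 array left out. The cause was not tested. Median scaling moved the median of all genes by 0.18 there, by -0.09 for age, by 0.11 for the difference of the DT responses and by -0.09 for PBS-treated ARF-DTR against wild type mice. With normexp 2 genes passed for the difference of the DT responses and 1 for PBS-treated ARF-DTR against wild type mice, against 0 each, and this setting moved the median of all genes by 0.08 for the difference of the DT responses and by -0.1 for PBS-treated ARF-DTR against wild type mice. The replicate numbers did not pair the arrays (correlations of -0.2 to 0.33), and the replicate block changed no other count of members.

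Of member changes, 15 turned direction, none of which had passed. For ARF-DTR DT against wild type PBS these were Gpm6a (-0.04), Rspo1 (-0.04) and Upk1b (-0.0031) with the replicate block, and, with 1 array left out, Bnc1 (0.04), Gpm6a (-0.09), Rspo1 (-0.0034 and, without DT replicate 3 or wild type PBS replicate 2, -0.11), Upk1b (-0.08 and -0.10) and Upk3b (-0.00026 and -0.19). Msln turned to 0.07 for DT in wild type, and Wt1 to 0.03 and 0.12 for PBS-treated ARF-DTR against wild type mice. With 1 array left out the changes for ARF-DTR DT against wild type PBS ran from -0.43 to 0.04 for Bnc1, -0.09 to 0.12 for Gpm6a, -0.11 to 0.12 for Rspo1, -0.10 to 0.25 for Upk1b and -0.19 to 0.42 for Upk3b. Those of Msln for DT in wild type ran from -0.42 to 0.07, and those of Wt1 for PBS-treated ARF-DTR against wild type mice from -0.28 to 0.12. Another 23 member changes lost a call and 10 gained one, and 992 kept both direction and side.

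Counts over all genes moved by more than 1.5 times as follows. For age 1577 passed, or 965 with only the arrays of the contrast and 927 to 1786 with 1 array left out. For ARF-DTR DT against wild type DT 237 passed, or 90 with the block, 126 with normexp, 3573 with no filter, 6 with only the arrays of the contrast and 85 to 300 with 1 array left out. For ARF-DTR DT against wild type PBS it was 1426, or 376 with only the arrays of the contrast and 204 to 1262 with 1 array left out. For PBS-treated ARF-DTR against wild type mice it was 6059, or 2323 to 5780 with 1 array left out. For DT in wild type it was 45, or 20 with normexp, 26 with median scaling, 26 with probes above background on all 16 arrays, 0 with only the arrays of the contrast and 78 to 233 with 1 array left out. For the difference of the DT responses it was 541, or 2007 with normexp, 289 with no filter and 227 to 1110 with 1 array left out. A fixed slide term could not be fitted, and a random slide block gave no value of its own, since every group was on 1 slide. Where a wild type group was left with 1 array, that array was assumed to vary like the other groups.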
